A study of Mus musculus with 3 samples.

Results

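The tumour necrosis factor (TNF) superfamily of ligands and the TNF receptor superfamily were followed through single-cell RNA libraries of mouse brainstem with and without a diffuse midline glioma (DMG). Members were chosen by name: every row whose symbol is Tnf or begins with Tnfsf or Tnfrsf and a digit. That gave 33 of 32285 features, namely 12 ligands, 20 receptors and 1 antisense RNA, Tnfsf13os. Relatives with other symbols, such as Fas, Cd40 and Cd27, are treated as pathway genes.

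The tumour group consisted of 2 libraries, tumour 1 and tumour 2, which the labels title as controls. Each came from an untreated B6(Cg)-Tyrc-2J/J mouse that had received 100000 cells of DIPG4423, a murine DMG line, in the brain at 6 weeks of age, and the brainstem was taken 3 weeks later. The normal group was 1 library, normal 1, labelled as untreated normal brainstem with no cell line, so it has no replicate. Both tumours grew from the same injected line, and the alleles of that line are not given in the sources used here. The labels do not say whether the normal mouse had a sham injection, nor its age, and tumour, injection and library cannot be told apart in the comparisons below. Apart from the titles nothing says how the tumour libraries relate, and p-values cover only how far these libraries scatter.

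After filtering, 10550, 9407 and 3083 cells were kept in tumour 1, tumour 2 and normal 1, with a median of 8783.5, 11297 and 2395 unique molecules (UMIs) per cell. Tumour 1 and tumour 2 shared 37 cell barcodes, tumour 1 and normal 1 shared 16, and tumour 2 and normal 1 shared 13. The normal library stood apart in its makeup. The 8 neutrophil markers summed to 88238 CPM there, against 948 and 1480 in the tumour libraries, and only 2087 of its cells remained without the neutrophil-like, B-like and monocyte-like cells and a cluster led by haemoglobin and granulocyte precursor genes. The same step left 10464 and 9207 tumour cells. Values are therefore given by class of cells as well as for whole libraries.

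TNF superfamily ligands are mostly membrane proteins that act as trimers, on the cell surface or after shedding by enzymes such as Adam17. Their receptors fall into those with a death domain, which can recruit Tradd or Fadd and start cell death or NF-kappa-B signalling, those that bind Traf adaptors, and decoys that bind ligand without signalling. In the brain, microglia are a known source of Tnf, while Tnfrsf12a (Fn14, the receptor of the ligand Tnfsf12, also called TWEAK) is known from injured tissue and from glioma.

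The promoters of Tnf and Tnfrsf12a are printed because these genes were, in that order, a ligand lower in glial progenitor-like than in microglia-like cells and the receptor with the largest called difference between whole libraries. Both lie on chromosome 17, minus strand. Tnf covers chr17:35199381-35202007 and Tnfrsf12a covers chr17:23675445-23677468 (GENCODE mouse release 21, GRCm38). The sequences are from RefSeq on GRCm38.p6, run 5′ to 3′ towards the gene, and end before the first base of the GENCODE gene. For Tnfrsf12a this leaves out 19 bases of the 250 before the RefSeq start. Capitals mark every match, on either strand, to TATAAA, the consensus of the TATA box, or to the GC box core GGGCGG.
Tnf, chr17:35202008-35202257: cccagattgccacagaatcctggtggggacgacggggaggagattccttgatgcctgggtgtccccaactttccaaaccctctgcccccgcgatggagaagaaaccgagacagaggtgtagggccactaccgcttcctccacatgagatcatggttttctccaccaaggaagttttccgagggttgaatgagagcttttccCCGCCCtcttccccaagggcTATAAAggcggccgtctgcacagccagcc
Tnfrsf12a, chr17:23677469-23677699: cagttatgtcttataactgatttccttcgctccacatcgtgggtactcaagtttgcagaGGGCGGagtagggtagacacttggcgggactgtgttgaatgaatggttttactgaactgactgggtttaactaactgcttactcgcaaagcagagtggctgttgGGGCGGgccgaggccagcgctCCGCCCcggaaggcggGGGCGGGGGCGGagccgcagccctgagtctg
The Tnf promoter held 1 match to TATAAA, which began 29 bases before the start. It also held 1 match to GGGCGG. The Tnfrsf12a promoter held 5 matches to GGGCGG, some of them adjoining, and none to the TATA box letters in this window. Of the 33 members, 25 had a promoter in the table. GGGCGG was found in 12 of these, and in 32.7% of all 32851 promoter windows of 250 bases. TATAAA was found in 5, and in 12.4% of all windows. The AP-1 motif TGANTCA was found in 5 (6.75% of all windows) and the kappa-B consensus in 2 (3.90%). A match describes the letters of the window and is not a binding site.

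Cells were grouped by clustering that left out the members and the pathway genes, and clusters were named from marker genes, so a class is called microglia-like and so on. Levels are CPM, the UMIs of a gene scaled to 1e6 UMIs of that class (or of the whole library) in that library. These are 3′ tags, counted once per molecule, which do not grow with transcript length. The heat map of all members by class shows the 33 members in 11 of these classes, among them the glial progenitor-like cells that make up much of the tumour libraries.

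**Figure D1:**
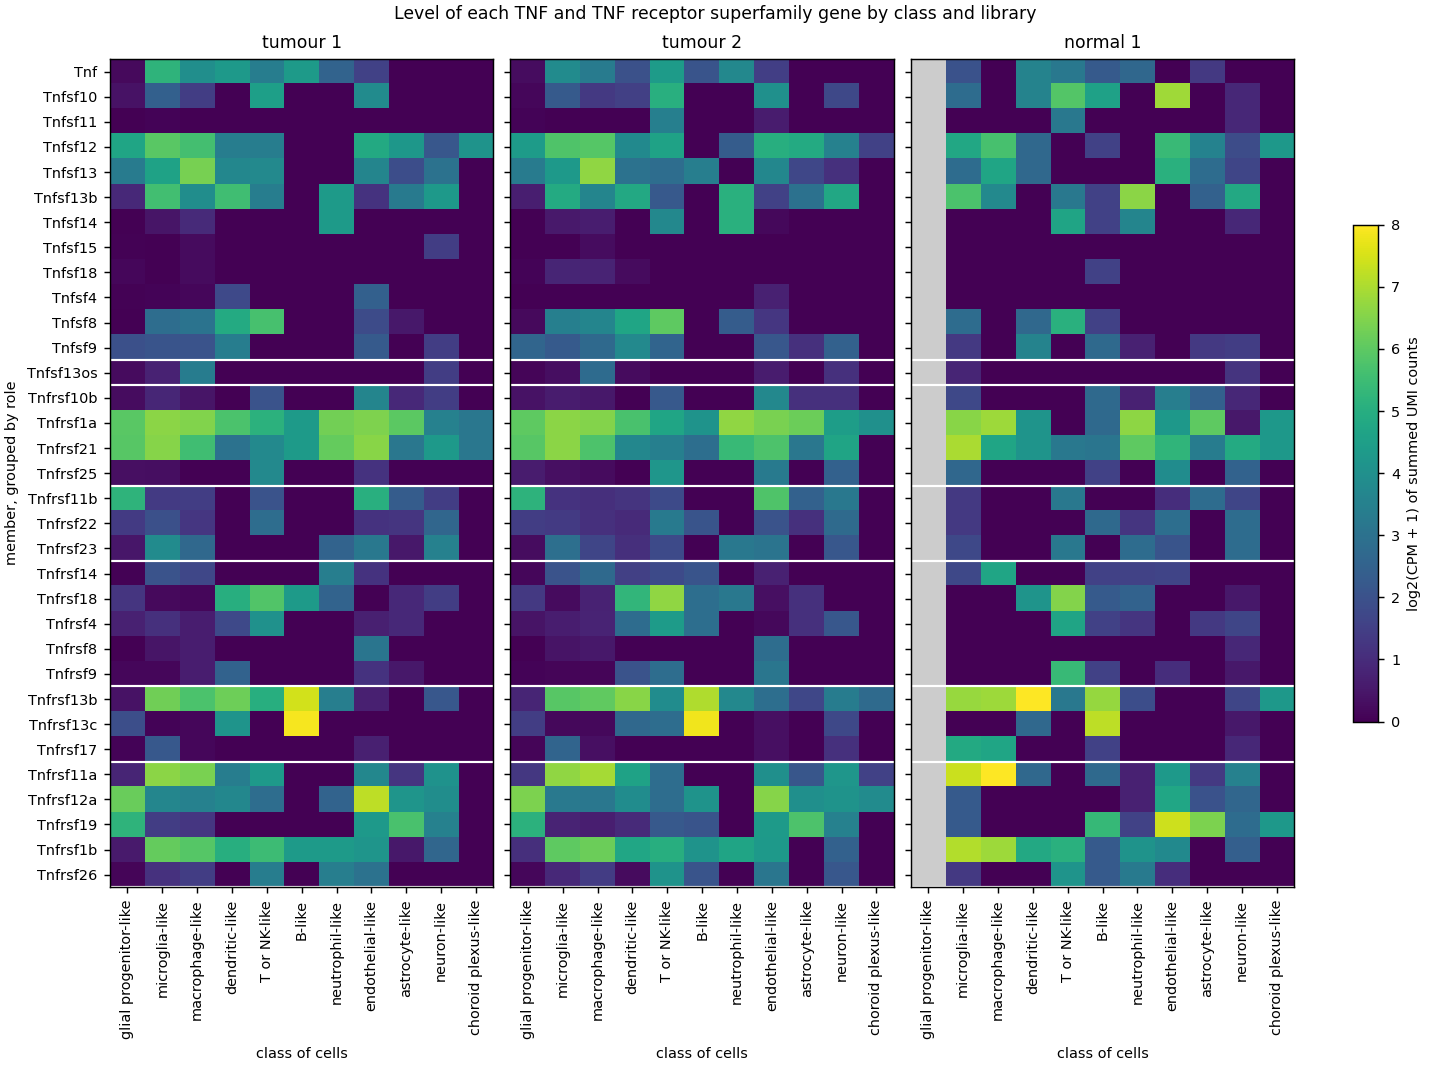
Rows are the 33 members grouped by role, columns are 11 classes of cells, panels are the 3 libraries, and colour is log2(CPM + 1) of summed UMI counts. Grey marks a class with under 20 cells in that library (glial progenitor-like cells in normal 1). Tnfrsf13c reaches 234 and 226 CPM in B-like cells of the tumour libraries, while Tnfsf15 is near 0 in all classes.

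Glial progenitor-like cells, marked by Pdgfra, Olig1, Olig2 and Sox10, numbered 4280 in tumour 1, 1958 in tumour 2 and 1 in normal 1. The members highest in them were receptors. Tnfrsf12a stood at 71.1 CPM in tumour 1 and 84.1 CPM in tumour 2. Tnfrsf1a, the death-domain receptor of Tnf found on most cell types, stood at 61.4 and 63.7 CPM. Tnfrsf11b (osteoprotegerin, a soluble decoy of Tnfsf11 and Tnfsf10) stood at 36.0 and 35.2 CPM, and Tnfrsf19 (Troy, a receptor of the embryonic nervous system) at 36.0 and 34.0 CPM. The ligands highest in them were Tnfsf12, at 25.3 and 19.8 CPM, and Tnfsf13 (APRIL, a B cell survival factor), at 9.06 and 9.07 CPM. For each of these 6 members the higher tumour library was less than 1.5 times the lower.

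The fit between classes used the tumour libraries only, with the library as a block. It held all the classes of the heat map, so its spread comes from the scatter of all of them and not only of the classes compared. Of 19 members that passed its low-count filter, 5 were higher and 12 lower in glial progenitor-like than in microglia-like cells (edgeR, adjusted p under 0.05). The background was high: 67.4% of 13700 genes were called, 37.1% higher and 30.3% lower. Higher in the progenitor-like cells were Tnfrsf19 (log2 difference 4.65), Tnfrsf11b (4.42), Tnfrsf13c (4.14), Tnfrsf18 (2.81) and Tnfrsf12a (2.72). The level of Tnfrsf13c, the B cell receptor of Tnfsf13b, was low there all the same, between 1.07 and 3.76 CPM over progenitor-like clusters 1, 2, 3, 6 and 7, and Tnfrsf18 (GITR) was between 1.18 and 1.81 CPM. Lower were the B cell receptor Tnfrsf13b (log2 difference −7.31), Tnf itself (−7.18), Tnfsf8 (CD30 ligand, −6.87), Tnfrsf11a (RANK, the receptor of Tnfsf11 on osteoclasts and macrophages, −6.78), Tnfrsf1b (the second Tnf receptor, −6.66), Tnfsf13b (BAFF, −5.86), Tnfsf10 (TRAIL, −4.40) and Tnfsf14 (LIGHT, −4.11). Smaller differences passed for Tnfsf12 (−1.61), Tnfsf13 (−1.49), Tnfrsf21 (−0.93) and Tnfrsf1a (−0.88).
All 5 members that were higher were receptors, and 7 of the 12 that were lower were ligands. The members tested but not called were the receptors Tnfrsf4 (−0.89) and Tnfrsf25 (0.46), so every ligand tested was among the lower. The members' median log2 difference was −1.49, against 0.13 over all genes tested.
Fits that left out 1 tumour library held only the 2 classes compared. In them several of these differences moved by over 1.5 times while keeping their sign. These shifts hold both the library left out and the change of fit. They are not set against the fit of only these 2 classes in both tumour libraries. Without tumour 1 the log2 difference was −6.46 for Tnf, −6.69 for Tnfrsf13b, −5.51 for Tnfsf10, −5.11 for Tnfsf14 and 3.42 for Tnfrsf13c. Without tumour 2 it was −8.04 for Tnf, −8.24 for Tnfrsf13b, −7.42 for Tnfrsf1b, −8.42 for Tnfsf8 and 5.36 for Tnfrsf13c.

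Within the progenitor-like cells Tnfrsf12a was above Tnfrsf11b and Tnfrsf19 in each of the 5 clusters of both tumour libraries. Tnfrsf12a ranged from 64.8 to 95.05 CPM over clusters 1, 2, 3, 6 and 7 in both tumour libraries, Tnfrsf11b from 27.7 to 50.6 CPM and Tnfrsf19 from 30.8 to 39.9 CPM. Cluster 6, led by cell cycle genes such as Cenpf and Aspm, had the lowest Tnfrsf11b of the 5 clusters in each library, 27.7 and 27.8 CPM. The unnamed cluster 25, found in the tumour libraries only and led by Papss2, Serpina3n and Fmod, had the highest Tnfrsf11b of the clusters in the plot by cluster, 63.6 and 79.6 CPM, with Tnfrsf12a at 103 and 93.2 CPM. The unnamed cluster 4, led by Gap43 and Fabp7, had Tnfrsf11b at 18.5 and 16.9 CPM.

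**Figure D2:**
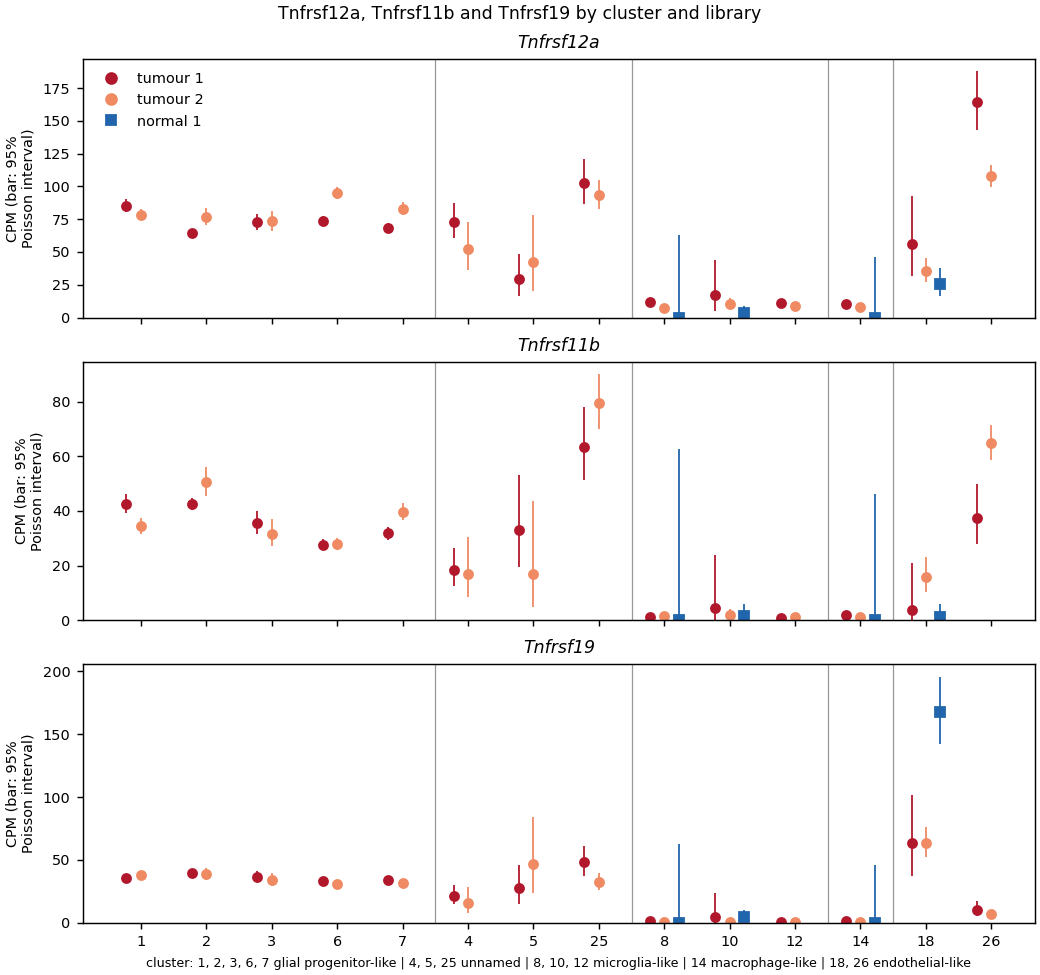
Points are CPM of Tnfrsf12a, Tnfrsf11b and Tnfrsf19 (top to bottom) in single clusters, coloured by library, with 95% Poisson intervals that cover counting error only. Tnfrsf12a is between 64.8 and 95.05 CPM in the progenitor-like clusters and reaches 164 CPM in endothelial-like cluster 26, and Tnfrsf19 is 168 CPM in endothelial-like cluster 18 of normal 1.

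Macrophage-like cells (Mrc1, Pf4, Ms4a7) numbered 635, 1406 and 28. Of the same 19 members, 1 was higher and 2 lower in macrophage-like cells, where 22.6% of genes were called, 9.99% higher and 12.6% lower. Tnfsf13 was 80.7 and 102 CPM in macrophage-like cells of tumour 1 and tumour 2, and 23.6 and 19.3 CPM in microglia-like cells, with no overlap (log2 difference 2.36, SE 0.213, adjusted p 1.99e-09). Tnfsf13b went the other way, at 14.1 and 11.6 CPM in macrophage-like and 47.2 and 28.6 CPM in microglia-like cells (log2 difference −1.27, SE 0.227, adjusted p 0.000115). Tnfrsf21 (death receptor 6) was lower, at 45.4 and 53.4 CPM against 93.0 and 96.4 CPM (log2 difference −0.68, SE 0.218, adjusted p 0.0230), and did not pass without the library block. For Tnfrsf11a the log2 difference was 0.27 ± 0.204 (SE) and for Tnfrsf1b 0.24 ± 0.203 (SE), neither called. With only these 2 classes in the fit, 9 of 25 members were called in place of 3 of 19. In that fit 2885 of 14066 genes were higher and 2745 lower.

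Of the Tnf counts, 653 of 895 in tumour 1, 458 of 771 in tumour 2 and 4 of 30 in normal 1 were in microglia-like cells. Tnf was 35.6, 13.6 and 3.06 CPM in microglia-like cells of tumour 1, tumour 2 and normal 1, and 14.5, 9.09 and 0 CPM in macrophage-like cells. In the unnamed cluster 15 it was 35.4, 14.6 and 0 CPM, and in the unnamed cluster 0, led by Hmox1 and Spp1, 14.9, 5.93 and 0 CPM. Values in the lymphoid and other blood cells rest on few counts. T or NK-like cells had 9.38, 19.9 and 8.24 CPM from 3, 16 and 1 counts. Dendritic-like cells had 19.1, 2.97 and 10.97 CPM from 8, 16 and 2. B-like cells had 1, 1 and 2 counts and neutrophil-like cells 1, 3 and 8. Cluster 30 had 3, 5 and 10 counts and monocyte-like cells 0, 0 and 2.
Outside the immune cells Tnf was near the limit of detection. Glial progenitor-like cells had 0.163 and 0.208 CPM in tumour 1 and tumour 2, and endothelial-like cells 1.91, 1.81 and 0 CPM. Astrocyte-like cells had 1 count, in normal 1. No Tnf count was found in neuron-like, choroid plexus-like, fibroblast-like or oligodendrocyte-like cells of any library.

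The receptors of Tnf were found in nearly all classes, with Tnfrsf1a the more widespread. Tnfrsf1a was 96.1, 96.5 and 95.5 CPM in microglia-like cells of tumour 1, tumour 2 and normal 1, 62.3, 72.9 and 64.1 CPM in astrocyte-like cells, and 77.9, 102 and 99.8 CPM in neutrophil-like cells. These 3 classes had nearly level values over the libraries. In macrophage-like cells it was 88.0, 91.4 and 113 CPM, the last from 9 counts. It was low in neuron-like cells, at 10.5, 20.9 and 0.433 CPM, and in choroid plexus-like cells, at 8.06, 15.3 and 18.3 CPM. B-like cells had 19.5, 16.1 and 5.72 CPM and T or NK-like cells 34.4, 24.9 and 0 CPM.
Among the named classes listed here, Tnfrsf1b was highest in microglia-like and macrophage-like cells. Its values in B-like and monocyte-like cells are left out. Tnfrsf1b was 67.5, 63.2 and 133 CPM in microglia-like and 58.5, 71.9 and 113 CPM in macrophage-like cells. It was 43.8, 31.1 and 32.9 CPM in T or NK-like and 31.0, 25.6 and 27.4 CPM in dendritic-like cells. Neutrophil-like cells had 19.5, 24.5 and 16.1 CPM and endothelial-like cells 17.2, 19.2 and 12.8 CPM. In neuron-like cells it was 5.26, 4.65 and 4.33 CPM, and astrocyte-like cells had 1, 0 and 0 counts. Monocyte-like cells, with only 7 cells in tumour 1, had Tnfrsf1a at 97.3, 116 and 86.9 CPM. The unnamed cluster 15, led by Cxcl2, Il1b, Il1r2 and Cxcr2, had 145 and 148 CPM of Tnfrsf1b and 138 and 195 CPM of Tnfrsf1a in the tumour libraries. It also had Tnfrsf23, a decoy receptor, at 103 and 73.9 CPM and Tnfsf14 at 31.8 and 61.0 CPM.

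In B-like cells Tnfrsf13c was 234, 226 and 145 CPM, and Tnfrsf13b (TACI) 176, 132 and 105 CPM, in tumour 1, tumour 2 and normal 1. T or NK-like cells had Tnfrsf18 at 56.3, 101 and 90.6 CPM and the ligand Tnfsf8 at 50.0, 63.4 and 32.9 CPM. They also had Tnfsf10 at 21.9, 32.3 and 57.7 CPM, the last from 7 counts. Dendritic-like cells, led by class II genes, had Tnfrsf13b at 74.0, 94.5 and 263 CPM and Tnfsf8 at 28.6, 25.1 and 5.49 CPM. Of the 2190, 4355 and 406 counts of Tnfrsf13b in whole libraries, 1403, 2011 and 141 were in microglia-like cells, at 76.5, 59.7 and 108 CPM, and 558, 1521 and 9 in macrophage-like cells. Of the 78, 193 and 43 counts of Tnfrsf17, 66, 167 and 37 were in microglia-like cells. Tnfrsf4 (OX40) was highest in T or NK-like cells, at 15.6, 19.9 and 24.7 CPM, and its ligand Tnfsf4 had 29, 16 and 0 UMIs in whole libraries. Tnfsf11, Tnfsf15 and Tnfsf18 had at most 48 UMIs in any library. Tnfrsf14, the receptor of Tnfsf14, was 0.669, 1.86 and 2.26 CPM and the decoy Tnfrsf22 1.87, 1.77 and 3.16 CPM over whole libraries.

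In the other classes Tnfsf12 and Tnfsf13b were most often the highest ligands. Tnfsf12 was 47.4, 58.0 and 50.1 CPM in macrophage-like cells, where Tnfsf13 was higher in both tumour libraries. Tnfsf12 was 17.8, 28.5 and 10.7 CPM in astrocyte-like cells and 40.9 and 58.0 CPM in cluster 0 of the tumour libraries. Tnfsf13b was the ligand highest in neuron-like cells, at 19.3, 26.7 and 27.3 CPM. Neuron-like cells also had Tnfrsf21 at 19.3, 24.4 and 28.6 CPM and Tnfrsf11a at 15.8, 17.4 and 10.4 CPM. In microglia-like cells Tnfsf13b was 47.2, 28.6 and 52.0 CPM and Tnfrsf11a 95.6, 101 and 163 CPM. The part of free RNA from other cells in the neuron-like values was not tested. Neutrophil-like cells had Tnfsf14 at 19.5, 32.6 and 11.4 CPM and Tnfrsf21 at 68.2, 40.8 and 63.6 CPM. Tnfrsf11a was among the highest receptors of macrophage-like cells, at 82.7, 119 and 288 CPM, the last from 23 counts.
The unnamed cluster 21, led by the mural genes Higd1b, Pdgfrb and Acta2, had the highest Tnfrsf21 among the leading members of each class, 215 and 154 CPM in tumour 1 and tumour 2. It had Tnfsf9 (4-1BB ligand) at 6.60 and 10.9 CPM and its receptor Tnfrsf9 at 25.7 and 14.5 CPM. Choroid plexus-like cells had little of any member, with Tnfsf12 at 16.1, 1.91 and 18.3 CPM. Fibroblast-like cells of normal 1 had Tnfrsf11b at 186 CPM, from 38 counts.

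Tumour and normal libraries were first compared as whole sums. In such sums, fewer cells of a class and less RNA per cell cannot be told apart. All 33 members passed the low-count filter, and 3 were higher and 1 lower in the tumour libraries, while 21.5% of 20449 genes were called, 13.1% higher and 8.36% lower. The members' share was thus below the background. An unadjusted edgeR p under 0.05 was found for 9 of the 33 members and for 7737 of the 20449 genes. The members' median log2 difference was −0.07, against 0.14 over all genes tested. With library size alone as the scale, the median of all genes moved from 0.14 to −0.42, the genes called turned from 2680 higher and 1710 lower to 1686 higher and 3798 lower, and 3 members were higher and 3 lower.

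Tnfrsf12a was 56.6 and 47.9 CPM in tumour 1 and tumour 2 and 5.33 CPM in normal 1. Both tumour libraries lay far above the normal one (log2 difference 3.85, SE 0.349, adjusted p 0.00815). Tnfrsf11b was 27.1 and 20.9 CPM against 4.70 CPM (log2 difference 2.90, SE 0.382, adjusted p 0.0129). Tnfsf12 was 31.4 and 35.0 CPM against 11.2 CPM (log2 difference 2.13, SE 0.343, adjusted p 0.0174). Tnfsf10 was lower, at 1.17 and 2.28 CPM against 13.2 CPM (log2 difference −2.35, SE 0.616, adjusted p 0.0495), a value that was −3.00 without tumour 2 and that did not pass with no low-count filter. The fitted differences include the TMM scale factors, 0.920, 0.840 and 1.29, and so exceed the plain CPM ratios for genes that were higher in tumour.
Tnf was 6.37 and 5.28 CPM against 2.71 CPM (log2 difference 1.65, SE 0.539, adjusted p 0.0837). Tnfrsf1a was 68.6 and 77.8 CPM against 49.4 CPM (log2 difference 1.13, SE 0.304, adjusted p 0.0534). Neither passed, although DESeq2 called Tnf, and Tnfrsf1a was called with no low-count filter and with doublets kept. Tnfrsf1b, at 15.3 and 31.4 CPM against 36.7 CPM, had a log2 difference of −0.07 (SE 0.519, adjusted p 0.936), and its tumour libraries differed from each other by more than that.

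The whole-library fit was repeated on smaller selections of cells, added after the values had been seen. Both selections called more genes than the 4390 of 20449 called with all cells. Without the neutrophil-like, B-like and monocyte-like cells and cluster 30, 7 members were higher and 1 lower. Of 20340 genes, 3606 were higher and 2100 lower in that fit. Tnf had a log2 difference of 3.01 (SE 0.626) there. Without the glial progenitor-like cells and clusters 4, 5 and 25, 10 members were higher and 1 lower, as were 2911 and 2304 of 18510 genes. Tnfrsf12a then had a log2 difference of 2.38 (SE 0.317) and was still called, Tnfsf12 had 2.69 (SE 0.238), while Tnfrsf11b had 0.86 and Tnfsf10 −1.19, and neither of these passed.

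**Figure D3:**
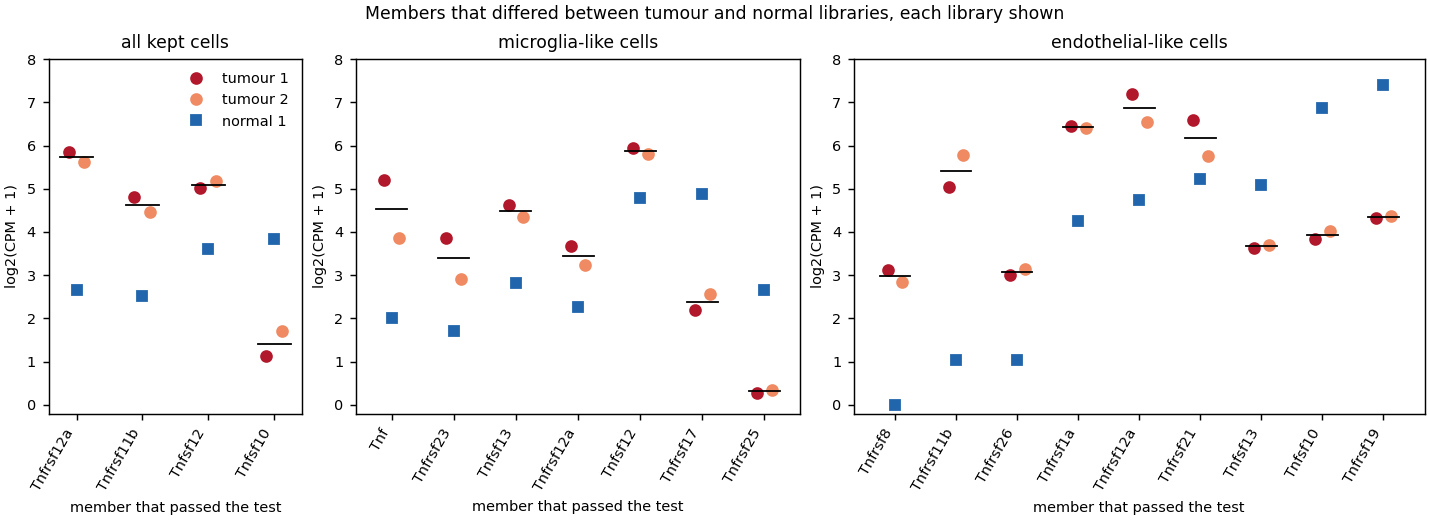
Points are log2(CPM + 1) in each library for members that passed the edgeR test (adjusted p under 0.05) over all cells, in microglia-like and in endothelial-like cells, and the short line is the mean of the tumour libraries on that scale. The pair of tumour libraries lies on one side of normal 1 for each member shown, for example Tnfrsf19 in endothelial-like cells at 19.1 and 19.6 CPM against 168 CPM.

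Microglia-like cells (P2ry12, Tmem119) numbered 2802, 3071 and 723 in tumour 1, tumour 2 and normal 1. In them 5 members were higher and 2 lower in the tumour libraries, of 25 that passed the low-count filter, where 22.4% of 14905 genes were called, 14.6% higher and 7.78% lower. The members' share was near that background.
Tnf was 35.6 and 13.6 CPM in tumour 1 and tumour 2 and 3.06 CPM in normal 1, from 653, 458 and 4 counts. Tumour 1 was well above tumour 2, and both were above normal 1 (log2 difference 3.48, SE 0.772, adjusted p 0.00822). Without tumour 1 the log2 difference was 2.75. Tnfsf12 was 60.9 and 55.1 CPM against 26.7 CPM (log2 difference 1.64, SE 0.268, adjusted p 0.00185). Tnfsf13 was 23.6 and 19.3 CPM against 6.11 CPM (log2 difference 2.32, SE 0.412, adjusted p 0.00268). The ligands Tnfsf12 and Tnfsf13 lie next to each other on chromosome 11, and Tnfsf13os overlaps both on the opposite strand. Whether the counting used strand is not given in the sources used here, so their counts could be shared in part. Tnfsf13os itself had 13, 8 and 1 counts in these cells.
Among receptors, Tnfrsf12a was 11.7 and 8.37 CPM against 3.82 CPM, the last from 5 counts (log2 difference 1.90, SE 0.549, adjusted p 0.0286). Tnfrsf23 was 13.6 and 6.50 CPM against 2.29 CPM. Its 3 normal counts give a ratio of 3.93 with a counting interval from 1.34 to 19.1 (edgeR adjusted p 0.0277). Tnfrsf22, Tnfrsf23 and Tnfrsf26 are neighbouring, closely similar genes on chromosome 7, and reads may be split among them.
The B cell maturation receptor Tnfrsf17 was lower in the tumour libraries, at 3.60 and 4.96 CPM against 28.3 CPM, from 66, 167 and 37 counts (log2 difference −2.17, SE 0.417, adjusted p 0.00395). The death-domain receptor Tnfrsf25 was also lower, at 0.218 and 0.267 CPM against 5.35 CPM, but rests on 4, 9 and 7 counts (log2 difference −3.86, SE 1.00, adjusted p 0.0178). Tnfrsf1a did not pass (log2 difference 0.54, SE 0.237, adjusted p 0.128), nor did Tnfrsf1b (−0.50, SE 0.216, adjusted p 0.119) or Tnfrsf11a, at 95.6, 101 and 163 CPM (−0.20, SE 0.232, adjusted p 0.563).

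The microglia-like cells of the groups came from different clusters. Cluster 10, led by P2ry12, Gpr34 and Tmem119, held 667 of the 723 normal cells, but only 52 cells of tumour 1 and 679 of tumour 2. Within cluster 10 alone, a selection added after the values had been seen, 2 members were called, Tnf (log2 difference 4.08, SE 0.957) and Tnfsf12 (1.84, SE 0.387). In cluster 10, 377 of 10508 genes were higher and 274 lower. Tnfsf13 (1.59), Tnfrsf17 (−1.11), Tnfrsf12a and Tnfrsf23 were not called there, and Tnfrsf25 was not tested. In the whole class DESeq2 called 5 of the 7 members, without Tnfrsf12a and Tnfrsf23. The 8 macrophage markers summed to 9045, 14372 and 1037 CPM in tumour 1, tumour 2 and normal 1. Neutrophil markers summed to 139, 183 and 963 CPM in these cells and neuron markers to 91.5, 126 and 1163 CPM. The part of these differences in the results was not tested. With library size alone the median of all genes in this class moved from 0.10 to −0.42, the genes called turned from 2177 higher and 1160 lower to 998 higher and 2666 lower, and 3 members were higher and 4 lower. Tnf, Tnfsf12, Tnfsf13, Tnfrsf17 and Tnfrsf25 were called on that scale too, Tnfrsf12a and Tnfrsf23 were not, and Tnfrsf11a (−0.73) and Tnfrsf1b (−1.03) were called as lower.

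Tnf was found in all microglia-like clusters of the tumour libraries. In tumour 1 it ranged from 24.7 CPM in cluster 12, led by Lpl, Ccl3 and Cst7, to 77.4 CPM in cluster 10. In tumour 2 it ranged from 8.98 CPM in cluster 9 to 16.0 CPM in cluster 12. In normal 1 it was 1.68 CPM in cluster 10, from 2 counts. Tumour 1 was above tumour 2 in each of the 6 clusters. Immediate early and heat shock genes, which can be induced while tissue is ground, summed to 1368, 845 and 735 CPM in the microglia-like cells of tumour 1, tumour 2 and normal 1. Their part in the Tnf level was not tested.
After each cell was thinned to 1000 UMIs, which left out 119, 25 and 150 shallower cells, 3.43% of 2683 cells in tumour 1 had a Tnf UMI (95% Clopper-Pearson interval 2.77% to 4.19%). The share was 1.38% of 3046 cells in tumour 2 (0.996% to 1.86%). In normal 1 it was 0 of 573 cells, which allows a share of up to 0.524% of cells with a UMI at that depth and does not limit how many express the gene. Unthinned, over all cells of the class, the shares were 14.3%, 9.41% and 0.415%. Median depths of 4275, 8889.5 and 1884 UMIs are of the cells with at least 1000 UMIs. They leave out the shallower cells that the unthinned shares include. As a measure of free RNA, thinned neuron-like cells had 0 of 166, 0 of 256 and 0 of 532 cells with a Tnf UMI, and glial progenitor-like cells had 1 of 4272 and 1 of 1957, at median depths of 15923 and 22210 UMIs. Both the intervals and the limits cover counting error only.

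**Figure D4:**
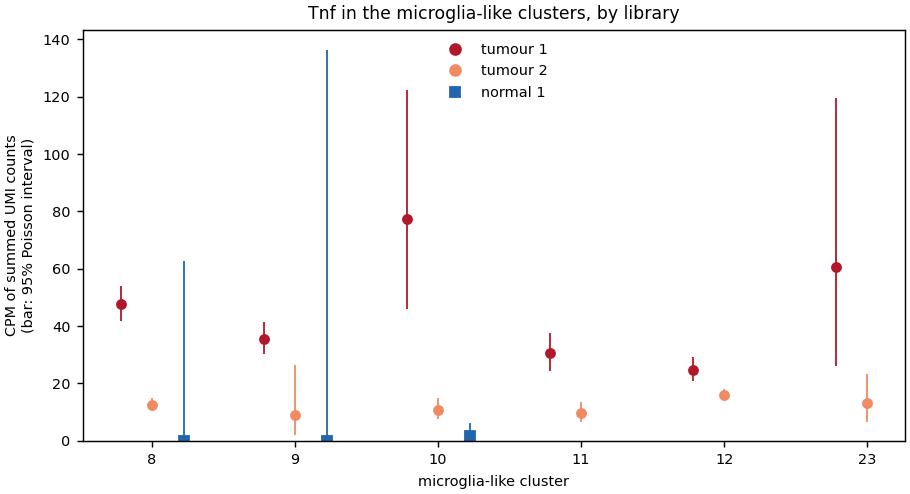
Points are CPM of Tnf in each microglia-like cluster, coloured by library, with 95% Poisson intervals for counting error only, and clusters with under 20 cells in a library have no point. Tumour 1 lies above tumour 2 in each cluster, and normal 1 is 1.68 CPM in cluster 10, the cluster that holds most of its cells.

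Endothelial-like cells (Cldn5, Pecam1, Cdh5) numbered 73, 219 and 145. Of 17 members that passed the low-count filter, 6 were higher and 3 lower in the tumour libraries, where 34.9% of 11384 genes were called, 20.6% higher and 14.3% lower.
The ligand Tnfsf10, an inducer of apoptosis through Tnfrsf10b, was 13.4 and 15.2 CPM in tumour 1 and tumour 2 and 116 CPM in normal 1 (log2 difference −2.73, SE 0.292, adjusted p 1.85e-05). Tnfrsf10b itself was 11.5, 12.3 and 9.60 CPM and did not pass. Tnfsf13 was 11.5 and 11.9 CPM against 33.1 CPM (log2 difference −1.23, SE 0.406, adjusted p 0.0318). Tnfsf12 was 28.0, 31.5 and 41.6 CPM and did not pass (log2 difference −0.20, SE 0.330, adjusted p 0.660).
Tnfrsf1a was 86.6 and 83.7 CPM against 18.1 CPM (log2 difference 2.49, SE 0.346, adjusted p 0.000131). The tumour libraries were close to each other and well above the normal one. Tnfrsf21 was 94.9 and 52.8 CPM against 36.3 CPM (log2 difference 1.24, SE 0.401, adjusted p 0.0288).
The decoy Tnfrsf11b was 31.8 and 54.0 CPM against 1.07 CPM (edgeR adjusted p 0.000137). Normal 1 had 1 count, so the ratio of 47.1 has a counting interval from 8.41 to 1864. Tnfrsf12a was 146 and 91.8 CPM against 25.6 CPM (log2 difference 2.45, SE 0.388, adjusted p 0.000357). Tnfrsf19 was the receptor that was lower, at 19.1 and 19.6 CPM against 168 CPM (log2 difference −2.85, SE 0.264, adjusted p 7.95e-06).
Tnfrsf8 (CD30) was 7.64 and 6.22 CPM against 0 CPM, at least 2.02-fold higher when normal 1 is set to a floor of 3 counts (edgeR adjusted p 0.0185). Its fitted value depends on the prior count and changed by over 1.5 times without tumour 2. Tnfrsf26 was 7.01 and 7.90 CPM against 1.07 CPM, from 1 count, a ratio of 7.26 with a counting interval from 1.26 to 291 (edgeR adjusted p 0.0446). DESeq2 called 5 of these 9 members, namely Tnfrsf19, Tnfsf10, Tnfrsf1a, Tnfrsf11b and Tnfrsf12a, and gave Tnfrsf8 and Tnfrsf26 no adjusted p.

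The class joined 2 clusters. Cluster 18, led by Slco1a4 and Ly6c1, held 46, 129 and 145 cells, and cluster 26, led by Angpt2, Apln and Esm1, held 27, 90 and 0. Cluster 26 had Tnfrsf12a at 164 and 108 CPM and Tnfrsf11b at 37.6 and 64.8 CPM, with Tnfrsf19 at 9.98 and 7.15 CPM. Within cluster 18 alone, a selection added after the values had been seen, Tnfsf10 (log2 difference −1.70, SE 0.352) and Tnfrsf19 (−1.26, SE 0.304) were still lower and Tnfrsf1a (2.27, SE 0.400) still higher. Of the other 6 members, Tnfrsf8 and Tnfrsf26 did not pass the low-count filter there and were not tested. Tnfrsf12a (0.80) and Tnfrsf21 (0.73) were not called, nor was Tnfrsf11b, at 3.74 and 15.8 CPM against 1.07 CPM from 1 normal count. The difference of Tnfsf13 turned to 0.31 and was not called. Tnfsf12, not called in either, turned from −0.20 to 0.94. Tnfrsf11a (1.45, SE 0.422) was called there as higher, as was Tnfrsf13b, with 1, 39 and 0 counts. Of 10358 genes, 1221 were higher and 652 lower in cluster 18. Macrophage markers summed to 2204, 2810 and 683 CPM in endothelial-like cells, and their part in these values was not tested. With library size alone, the median of all genes in this class moved from 0.06 to −0.21, the genes called turned from 2345 higher and 1623 lower to 1942 higher and 2471 lower, and 5 members were higher and 3 lower.

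The change in endothelial-like cells differed from that in microglia-like cells for 4 members in an interaction fit added after seeing the data, where 8.89% of 14664 genes were called, 4.76% higher and 4.13% lower. It was more positive in endothelial-like cells for Tnfrsf1a (difference of log2 changes 1.98, SE 0.406, adjusted p 0.00130). It was more negative there for Tnfsf13 (−3.51, SE 0.584), Tnfsf10 (−2.68, SE 0.577) and Tnfsf12 (−1.82, SE 0.405).

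**Figure D5:**
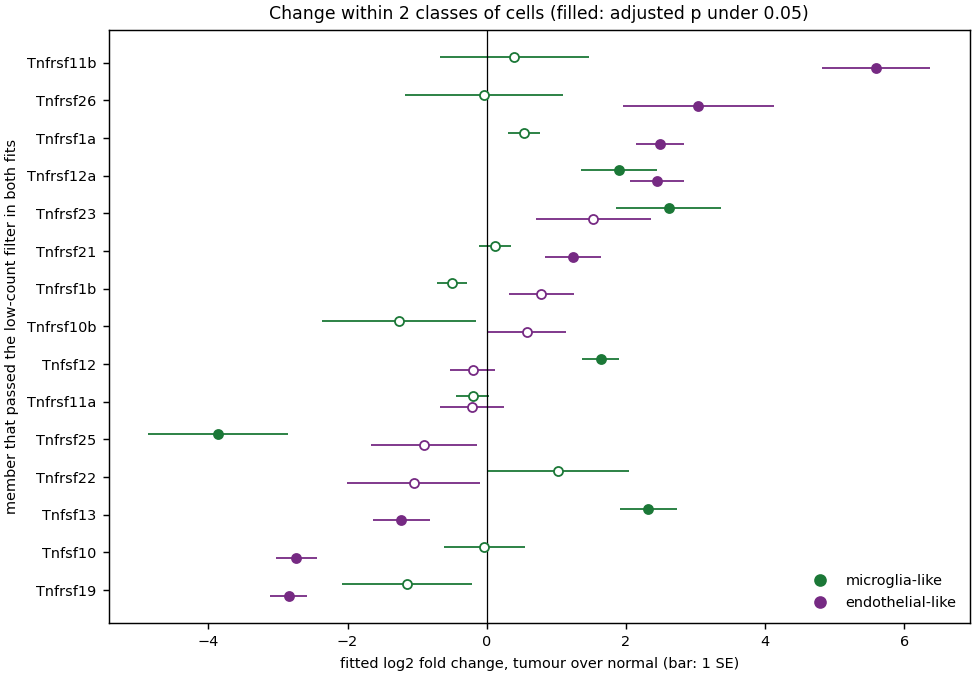
Points are the fitted log2 fold change of tumour over normal libraries with 1 SE, in microglia-like and endothelial-like cells, for the members that passed the low-count filter in both fits, and filled points had an adjusted p under 0.05. Tnfsf12 is 1.64 in microglia-like and −0.20 in endothelial-like cells, and Tnfrsf1a is 0.54 and 2.49.

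In the other classes few members could be tested. Dendritic-like cells had 39, 380 and 40 cells, and 2 members were higher and 1 lower of 6 tested, where 14% of genes were called, 8.41% higher and 5.56% lower. Tnfsf13b was 45.4 and 27.3 CPM against 0 CPM, at least 1.74-fold higher at a floor of 3 counts (edgeR adjusted p 0.0109), and its fitted value moved by over 1.5 times without tumour 2. Tnfrsf1a was 52.5 and 51.4 CPM against 16.5 CPM from 3 counts, a ratio of 3.13 with a counting interval from 1.06 to 15.3 (edgeR adjusted p 0.0335). Tnfrsf13b was lower in tumour (log2 difference −1.15, SE 0.327, adjusted p 0.0153). A stricter cell filter called none of the 3. DESeq2 called neither Tnfrsf1a nor Tnfrsf13b and gave Tnfsf13b no adjusted p.
In neutrophil-like cells (47, 47 and 427) Tnfsf13b was 19.5 and 32.6 CPM against 96.5 CPM, from 4, 8 and 144 counts. It was lower in the tumour libraries (log2 difference −1.93, SE 0.496, adjusted p 0.00379), the 1 member called of 3 tested, where 7.77% of genes were called, 4.59% higher and 3.18% lower. DESeq2 gave it no adjusted p. The unnamed cluster 15, led by genes such as Cxcl2, Il1r2 and Cxcr2, held 270, 442 and 20 cells and had Tnfsf13b at 13, 19 and 0 counts. In a clustering with members among the variable genes, neutrophil-like cells numbered 323, 496 and 522, and Tnfsf13b had a log2 difference of −2.69 (SE 0.355).
No member was called in astrocyte-like (4 tested, 7.08% of genes called), B-like (3, 8.33%), macrophage-like (20, 1.39%), neuron-like (5, 2.81%) or T or NK-like cells (6, 5.15%), and in choroid plexus-like cells none passed the filter. At an unadjusted edgeR p under 0.05 there were 2 in astrocyte-like cells, 0 in B-like cells and 1 in each of the macrophage-like, neuron-like and T or NK-like cells. Of all genes tested, 1949 of 9789 met that threshold in astrocyte-like, 1088 of 6150 in B-like and 2025 of 12691 in macrophage-like cells. It was met by 1300 of 10849 in neuron-like and 978 of 5958 in T or NK-like cells. DESeq2 called none in these classes, and gave no adjusted p to any member tested in astrocyte-like and T or NK-like cells. Macrophage-like cells had only 28 normal cells, and Tnfsf13 was 80.7, 102 and 25.1 CPM there, the last from 2 counts (adjusted p 0.152). In astrocyte-like cells Tnfrsf19 was 50.7, 53.6 and 83.9 CPM (log2 difference −0.74, SE 0.308, adjusted p 0.136).

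The pathway list held 50 genes that are not members. In whole libraries 4 were higher and 2 lower of 50 tested, against the 21.5% background, with a median log2 difference of 0.14, as over all genes. With library size alone 2 were higher and 8 lower, with a median of −0.43. Tnfaip6, a TNF-induced secreted protein that binds hyaluronan, was 99.2 and 93.5 CPM against 2.98 CPM (log2 difference 5.57, SE 0.371). The adaptor Traf4 was 110 and 64.6 CPM against 4.70 CPM (log2 difference 4.76, SE 0.475). Both were also higher in glial progenitor-like than in microglia-like cells, by 5.29 and 4.49 on the log2 scale. Nfkbib (1.58, SE 0.334), an inhibitor of NF-kappa-B, and Ltbr (1.57, SE 0.322), the lymphotoxin receptor, were higher. The death receptor Fas (−3.00, SE 0.467) and the lymphocyte receptor Cd27 (−2.16, SE 0.336) were lower.
In microglia-like cells 5 of 42 tested were higher and 1 lower, against 22.4%, with a median of −0.12 against 0.10 over all genes. With library size alone this turned to 1 higher and 11 lower, with a median of −0.63. Tnfaip2, a TNF-induced gene, was 28.9 and 35.0 CPM against 10.7 CPM (log2 difference 2.11, SE 0.382). Nfkbia, the feedback inhibitor of NF-kappa-B, was 216 and 147 CPM against 127 CPM (log2 difference 1.03, SE 0.271). Nfkb2 (1.59, SE 0.520), Tradd (1.54, SE 0.445) and Nfkbib (1.21, SE 0.332) were also higher, and Cd27 was lower (−2.45, SE 0.247). In endothelial-like cells 7 of 38 were higher and 5 lower, against 34.9%, with a median of 0.14 against 0.06, and with library size alone 7 were higher and 10 lower. The genes of this class lay outside the rule for named genes and were chosen after their values were seen. Higher were Traf4 (2.80, SE 0.540), Tnip1 (2.25, SE 0.644) and the receptor Cd40 (1.73, SE 0.425). Tnfaip2, Ripk3, Tnfaip6 and Nfkbie were also higher, with 1, 2, 0 and 1 normal counts. Fas was lower, at 21.7 and 24.7 CPM against 210 CPM (log2 difference −2.89, SE 0.250). The kinases Ikbkb (−1.13, SE 0.287) and Chuk (−0.85, SE 0.311), the sheddase Adam17 (42.7 and 53.9 CPM against 118 CPM) and the adaptor Tab2 (−0.86, SE 0.231) were lower too.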

How the data were processed

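Single cells of 3 libraries were prepared with a 10x Genomics 3′ kit after grinding, filtering and removal of myelin and red cells, per the labels' protocols. The authors deposited raw UMI counts per gene and barcode from Cell Ranger 6.1.2, per the file headers, with the build mm10, per the submitters' processing notes. The annotation and the use of strand are not given in the sources used here.

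Cells with at least 500 UMIs, at least 300 genes and at most 15% mitochondrial UMIs were kept, and doublets were removed with Scrublet (expected rate 8%), which marked 3.43%, 2.47% and 1.47%. Counts scaled to 10000 were clustered with scanpy 1.11.5 (2000 variable genes without members or pathway genes, 30 components, 15 neighbours, Leiden resolution 1.0). Clusters were named from 19 marker lists, needing a score of 1, a margin of 0.5 and 3 markers in 10% of cells. These scoring rules were set after the clusters were seen.

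Counts summed per library and class were tested in edgeR 4.0.16 (quasi-likelihood, TMM, filterByExpr, Benjamini-Hochberg over all genes, threshold 0.05). Tumour against normal is 2 libraries against 1, with 1 residual degree of freedom. The normal group adds nothing to the spread, which comes from the tumour pair and, through the edgeR prior, from the other genes. The prior degrees of freedom were 4.42 for whole libraries, 10.3 in microglia-like, 12.3 in endothelial-like and 29.7 in dendritic-like cells. They were infinite in neutrophil-like, astrocyte-like, B-like and T or NK-like cells, where single genes had no quasi-likelihood spread of their own. An exact permutation test could not go below 1 in 3. Classes were compared within the tumour libraries with the library, which is the mouse, as a block. That fit held every named class with at least 20 cells in both tumour libraries. The tumour against normal fit was tested on simulated sums, for whole libraries and for microglia-like cells. The other steps were not tested in that way. Alternatives were other scaling, filters, DESeq2 1.42.0, left-out libraries, cell filters and clusterings, and selections added after seeing the data.

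The members, the pathway list and the other lists were chosen with earlier results of these data known. The rule for naming covered Tnf, Tnfrsf1a and Tnfrsf1b in each class, every member called, and the 2 ligands and 2 receptors highest in each class. It also covered pathway genes called in whole libraries or microglia-like cells. Some of these values are left out of the text, such as Tnfrsf1b in B-like cells and the leading members of cluster 20. All 33 members matched GENCODE on GRCm38, and 25 matched RefSeq promoters.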

Additional observations from a re-analysis of the deposited data

Results flagged for a closer look

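For 4 members the difference between tumour and normal libraries was not the same in endothelial-like as in microglia-like cells. This was tested as an interaction in 1 edgeR fit with the library as a block, added after seeing the data, in which 8.89% of 14664 genes were called. The change of Tnfsf13 in endothelial-like cells minus that in microglia-like cells was −3.51 on the log2 scale (SE 0.584, adjusted p 0.000111). For Tnfsf10 it was −2.68 (SE 0.577) and for Tnfsf12 −1.82 (SE 0.405). For Tnfrsf1a it was 1.98 (SE 0.406). Within cluster 18 alone the endothelial-like difference of Tnfsf13 changed sign, and that of Tnfsf12, not called in either, did as well. The interaction was not refitted on that cluster.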

How the results depend on the processing

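For whole libraries, where the standard settings called 4 members, 8 were called without marrow-type clusters and 11 without glial progenitor-like cells. In microglia-like cells cluster 10 alone gave 2 in place of 7, DESeq2 gave 5, and the stricter cell filter, doublets kept and adding cluster 0 each gave 6. In endothelial-like cells DESeq2 and cluster 18 alone each gave 5 in place of 9, and Tnfsf13 had a log2 difference of 0.31 in cluster 18. In dendritic-like cells, in place of 3, RLE size factors and resolution 2.0 each gave 1, and DESeq2 and the stricter cell filter each gave 0. In neutrophil-like cells, in place of 1 of 3 tested, the stricter filter gave 0 and DESeq2 gave 0 (with no adjusted p for Tnfsf13b). Keeping doublets gave 6 of 17 tested, where 938 of 10290 genes were higher and 1000 lower. Members among the variable genes gave 6 of 15 tested, where 769 of 9763 genes were higher and 861 lower. Where none was called, keeping doublets gave 2 in astrocyte-like cells, resolution 2.0 gave 1 in macrophage-like cells, and no low-count filter or doublets kept gave 1 in neuron-like cells. For macrophage-like against microglia-like cells, in place of 3, library size alone gave 5, the stricter filter and resolution 2.0 gave 6, no low-count filter, doublets kept and members among the variable genes gave 7, and only the 2 classes gave 9. The number of genes called over all genes changed with the settings too. In microglia-like cells it was 2177 higher and 1160 lower of 14905, and 377 and 274 of 10508 in cluster 10 alone. Most member counts of this paragraph are not set against the genes called at each setting. The cause was not tested.

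The share of microglia-like cells with a Tnf UMI was 14.3%, 9.41% and 0.415% unthinned, and 6.77%, 2.48% and 0.766% when thinned to 2000 UMIs. The mean over cells of Tnf in tumour 2 was 15.0 CPM. Without the replicate block, 17 of 19 members were called for progenitor-like against microglia-like cells, where 4611 of 13700 genes were higher and 3740 lower. For macrophage-like against microglia-like cells 2 of 19 were called, where 858 of 13700 genes were higher and 1134 lower. No paired analysis was possible for tumour against normal, because the normal group was 1 library and nothing in the sample labels pairs it with a tumour library. Leaving out a tumour library there leaves no residual degrees of freedom, so those values have no test. Depth limited normal 1 most, with 28 macrophage-like cells and 4 Tnf counts in microglia-like cells.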
